A study of Mus musculus with 468 samples.

Results

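The Elovl family is the set of 7 mouse enzymes, Elovl1 to Elovl7, that carry out the first step of fatty acid elongation. They were followed here across 4 adipose depots of mice given fibroblast growth factor 21 (FGF21), a hormone made largely by the liver that acts on fat. The family was chosen with earlier results of these data known, and its members were then taken by gene symbol. Of the 43681 probe sets on the array, 11 carried an Elovl symbol. For each of the 7 genes, of 21931 with a symbol, the probe set with the highest mean log2 level over all arrays was used. The data were 468 arrays of male mice in 96 groups of 3 to 5 arrays, each group 1 depot, model, treatment and day. They were 119 arrays of brown fat (BAT), 120 of inguinal (IWAT), 115 of epididymal (EWAT) and 114 of retroperitoneal (RPWAT) white fat. By the methods, the 4 depots were taken from the same mice, 5 for each treatment group, so depots are not separate animals. The mice were C57BL/6 on chow (WT-chow), C57BL/6 on a high fat diet from 6 weeks of age (WT-HFD), and db/db mice fed chow (db/db-chow). The db/db mice lack a working leptin receptor and are obese and diabetic. All were 8 weeks of age and received subcutaneous saline vehicle, WT FGF21 at 1.25 mg/kg 2 times a day, or PEG30-FGF21 Q108, a variant joined to polyethylene glycol that stays longer in the blood, at 0.75 or 2.5 mg/kg 2 times a week, for 2 or 5 days. For the pegylated protein, 2 and 5 days meant 1 and 2 injections, so day and number of injections cannot be told apart. The last injection preceded the taking of tissue by about 6 hours for vehicle and WT FGF21 and by about 30 hours for the pegylated protein. Vehicle and pegylated groups thus differ in that interval too, and the proteins were set side by side and not tested against each other. The labels do not tie the depots of 1 mouse to each other, and they call the arrays of a group separate samples.

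Fatty acids longer than palmitate are built in the endoplasmic reticulum by a cycle of a condensation, a reduction, a dehydration and a second reduction, which lengthens the chain at the expense of malonyl-CoA. The Elovl enzymes carry out the condensation and set which chains are extended. Elovl6 extends palmitate to stearate and is one of the lipogenic genes of liver and fat, while Elovl3, found as a cold-induced gene of brown fat, and Elovl1 and Elovl7 make very long saturated and monounsaturated chains. Elovl5 and Elovl2 act on polyunsaturated chains, and Elovl4 makes the longest chains of the retina and the skin.

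The genes lie on 5 chromosomes (GRCm38.p6, RefSeq): Elovl6 at chr3:129532386-129638495, Elovl1 at chr4:118426874-118432953, Elovl5 at chr9:77917365-77984519, Elovl4 at chr9:83778692-83806305, Elovl2 at chr13:41182382-41220403, Elovl7 at chr13:108214326-108287109 and Elovl3 at chr19:46131897-46135694. A promoter window, from 250 bases before to 50 after a start, was found in the RefSeq table for 6 of the 7 genes and not for Elovl3. Elovl6 and Elovl4 are shown because, of the members with a window, they had the most calls below. In the window of Elovl6, chr3:129532136-129532435 on the plus strand, capitals mark 1 nuclear receptor half-site, read on the other strand, 193 bases before the start. In that of Elovl4, chr9:83806256-83806555 on the minus strand, capitals mark 2 overlapping GC boxes, an E-box and a CCAAT box, of which the GC boxes and the CCAAT box are read on the other strand. The sequences run 5′ to 3′ in the direction of the gene.
Elovl6: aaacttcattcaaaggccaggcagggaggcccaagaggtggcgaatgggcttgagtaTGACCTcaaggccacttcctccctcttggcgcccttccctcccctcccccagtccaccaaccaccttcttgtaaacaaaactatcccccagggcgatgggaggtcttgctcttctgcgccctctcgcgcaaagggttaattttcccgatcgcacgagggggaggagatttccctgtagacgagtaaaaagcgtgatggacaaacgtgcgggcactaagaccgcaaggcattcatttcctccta
Elovl4: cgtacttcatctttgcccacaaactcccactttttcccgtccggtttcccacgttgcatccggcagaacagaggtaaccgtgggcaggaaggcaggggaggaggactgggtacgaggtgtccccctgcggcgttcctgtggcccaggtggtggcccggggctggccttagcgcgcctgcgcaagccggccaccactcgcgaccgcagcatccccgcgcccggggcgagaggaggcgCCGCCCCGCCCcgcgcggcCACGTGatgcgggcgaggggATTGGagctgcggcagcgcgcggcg
The 5 motifs were searched on both strands. Among 32851 promoter windows of the same length, AGGTCA was in 16.3%, CACGTG in 7.15%, CCAAT in 37.4%, GGGCGG in 35.7% and the sterol regulatory element TCACNCCAC in 1.24%, and that last motif was in none of the members' windows. These are matches of letters, and binding was not measured.

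Values are microarray intensities, and a level is their log2. The 12 sets of arrays, 1 for each depot and model, lay on different scales, with array medians of 11.15 to 11.83 intensity units in BAT of WT-chow and up to 62.01 in IWAT of WT-chow, so every treatment was compared with vehicle of the same depot, model and day. Of 7 adipocyte markers, 7 lay above the 75th percentile of the array in the vehicle groups of each depot. Of 8 brown adipocyte markers, 7 did so in BAT, 4 in IWAT, 1 in EWAT and 5 in RPWAT. Skeletal muscle transcripts were high in BAT and IWAT too, where 7 and 6 of 7 markers lay above the 75th percentile. Within a set, arrays correlated with each other at a median r of 0.9738 or more per array, except for 2 IWAT arrays, which stood apart. They were replicate 3 of WT FGF21 at 5 d in WT-HFD, in which skin and gland epithelium markers summed to 29390 against 316.2 to 573 in the other arrays of its set and adipocyte markers to 7137 against 51990 to 68330, and replicate 2 of vehicle at 2 d in db/db-chow, in which macrophage markers summed to 5541 against 10010 to 15900 and brown adipocyte markers to 1742 against 2960 to 8582. IWAT calls that use their groups are therefore given with and without them. All groups of a depot share 1 estimate of the spread, so these arrays also bear on IWAT contrasts that do not hold them. Without them, the share of all probe sets called with the high dose rose from 0.561% to 2.89% in WT-chow at 2 d. In WT-HFD at 5 d it rose from 1.7% to 5.69%. An IWAT change that was not called may thus have been missed because of these arrays. In such whole-tissue samples, fewer cells of a type and less RNA per cell cannot be told apart.

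FGF21 was followed by higher Elovl3 and Elovl6 in BAT, higher Elovl3 in IWAT of the C57BL/6 mice, and higher Elovl4 in the white depots of db/db-chow. A change below is the mean log2 level of the treated arrays minus that of vehicle, with its standard error from limma, and it is called where the limma adjusted p, over all 43681 probe sets, is under 0.05. Whether treated and vehicle arrays overlapped is given too, but groups without overlap were not rare. In a single contrast, 1097 to 7024 of the 43681 probe sets had no overlap in BAT. The range was 677 to 1999 in IWAT, 610 to 5437 in EWAT and 597 to 4751 in RPWAT. A lack of overlap alone thus does not set a member apart. With 7 genes and 6 combinations of model and day there were 42 member tests for each treatment in each depot. In BAT, 8 were called with WT FGF21, where 8.88% of all probe set tests were, 14 with the low dose of PEG30-FGF21 Q108 (13 higher, 1 lower; 9.42% of all) and 15 with the high dose (13 higher, 2 lower; 11.2% of all). In IWAT, 5 (4 higher, 1 lower; 4.18% of all), 3 (2.26% of all) and 3 (3.52% of all) were called in the same order. In EWAT there were 3 (2.39% of all), 1 (1.45% of all) and 1 (2.15% of all), and in RPWAT 5 (4 higher, 1 lower; 2.9% of all), 3 (1.58% of all) and 3 (2.49% of all). The calls were spread unevenly: Elovl3, Elovl4 and Elovl6 held 54 of the 64, and Elovl2 had 0 calls against vehicle in any depot, with a smallest adjusted p of 0.0524.

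**Figure D1:**
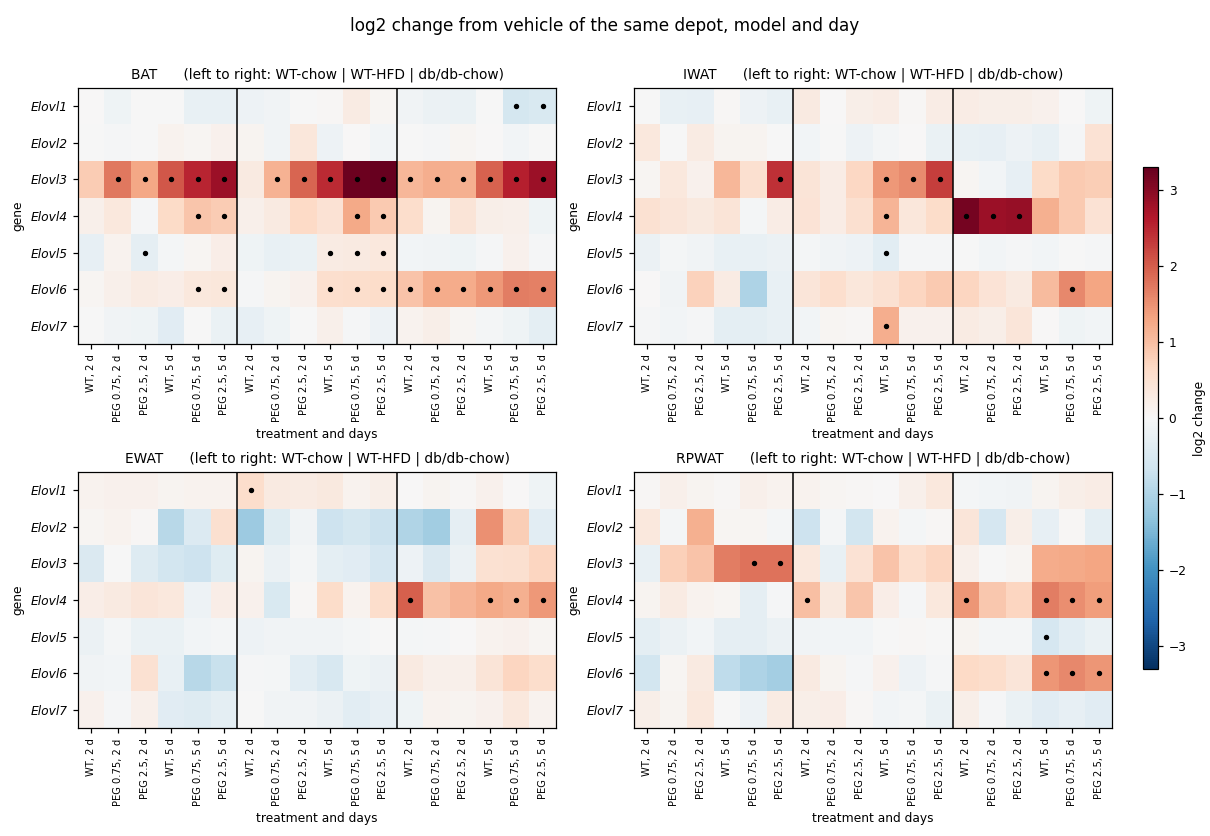
Colour shows the log2 change from vehicle of the same depot, model and day for each Elovl gene (rows) and each treatment and day (columns, doses in mg/kg; vertical lines part the 3 models); dots mark changes with a limma adjusted p under 0.05. The Elovl3 row of BAT ran from 0.30 to 3.29, while that of EWAT ran from -0.67 to 0.72 with no dot.

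Elovl3 changed most in BAT, where all 18 treatment groups lay above their vehicle and 16 were called. At 5 d in WT-chow, the 5 vehicle arrays had log2 levels of 7.95, 7.74, 7.89, 9.27 and 7.61. With WT FGF21 they were 10, 10.31, 9.81, 10.24 and 10.36, and with PEG30-FGF21 Q108 at 2.5 mg/kg 11.17, 10.87, 11.2, 10.81 and 10.53. No treated array fell among the vehicle arrays, although 1 vehicle array stood more than a log2 unit above the others. The change was 2.05 (SE 0.26, adjusted p = 3.46e-09, 4.14-fold) with WT FGF21, 2.53 (adjusted p = 1.31e-12, 5.76-fold) with the low dose and 2.83 (adjusted p = 3.23e-15, 7.09-fold) with the high dose of the pegylated protein.

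Elovl3 rose in BAT of WT-HFD and db/db-chow too. At 5 d in WT-HFD, vehicle levels of Elovl3 were 7.45, 7.5, 7.6, 7.49 and 8.61, and those with the high dose 10.7, 11.18, 10.89, 10.93 and 11.39. The changes there were 2.47 (SE 0.28; 4 treated arrays) with WT FGF21, 3.23 (9.36-fold) with the low dose and 3.29 (9.76-fold, adjusted p = 1.46e-18) with the high dose. In db/db-chow, vehicle levels at 5 d were 4.24, 4.96, 5.58, 4.97 and 4.66 and levels with the high dose 7.26, 7.85, 7.88, 7.42 and 8.06. The groups did not overlap in either model, which also held for 4057 of 43681 probe sets in WT-HFD and 5947 in db/db-chow. The db/db-chow changes were 1.94, 2.58 and 2.81 (7.02-fold, adjusted p = 2.09e-15) for WT FGF21, the low and the high dose.

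The 2 d changes of Elovl3 in BAT were smaller. In WT-chow, vehicle levels were 8.73, 8.09, 8.64, 8.02 and 7.95, those with the low dose 10.11, 10.63, 8.92, 10.03 and 10.4, and those with the high dose 9.1, 9.57, 9.91, 9.9 and 9.36. Both doses were called, at 1.73 (adjusted p = 8.24e-07) and 1.28 (adjusted p = 0.000553), and WT FGF21 was not, at 0.85 (adjusted p = 0.0626). In WT-HFD the changes at 2 d were 0.30 (adjusted p = 0.501) with WT FGF21, 1.14 (adjusted p = 0.00622) with the low dose and 1.91 (adjusted p = 4.33e-08) with the high dose. In db/db-chow all 3 were called, at 1.10, 1.21 and 1.18, and with the high dose the levels went from between 4.59 and 5.36 to between 5.92 and 6.54. Without replicate 5 the calls of the low dose in WT-HFD (0.78, adjusted p = 0.23) and of WT FGF21 in db/db-chow (0.88, adjusted p = 0.0525) were lost.

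**Figure D2:**
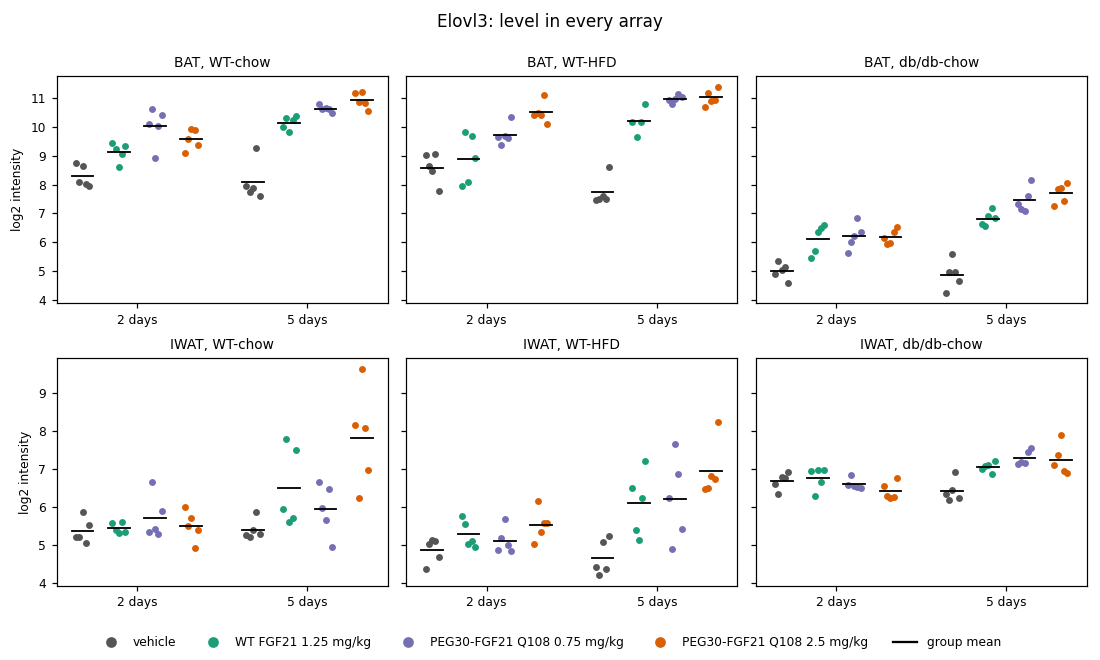
Log2 intensity of Elovl3 in every array (points) of BAT (upper row) and IWAT (lower row) by model, day and treatment; bars are group means. In BAT at 5 d the high-dose arrays of WT-chow sit between 10.53 and 11.2 and the vehicle arrays between 7.61 and 9.27.

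The response to the high dose was tested directly between days, doses and models. The 2 d response followed 1 injection and the 5 d response 2. In BAT, 4 of 21 member tests of the 5 d minus the 2 d response were called, where 1.37% of all probe set tests were, and 2 of them were Elovl3: 1.54 (SE 0.37, adjusted p = 0.00879) in WT-chow and 1.64 (adjusted p = 0.00741) in db/db-chow. In WT-HFD it was 1.38 (adjusted p = 0.0705). The WT-chow call was lost without replicate 1, 2 or 3 (adjusted p up to 0.17), and the db/db-chow call without replicate 2 (adjusted p = 0.083). Between the doses, 2 of 42 member tests in BAT were called (0.164% of all), and Elovl3 was not among them: the high minus the low dose ran from -0.45 to 0.77 over the 6 combinations of model and day, with 95% intervals reaching from -0.97 to 1.29. Between models, 2 of 28 member tests were called in BAT (2.37% of all), neither of them Elovl3.

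In IWAT, Elovl3 rose at 5 d in the C57BL/6 mice, with a wide spread among treated arrays. Vehicle levels in WT-chow were 5.25, 5.2, 5.4, 5.85 and 5.29. With the high dose of PEG30-FGF21 Q108 they were 8.14, 6.23, 9.63, 8.07 and 6.97, all above vehicle, and with the low dose 6.64, 5.97, 5.65, 6.45 and 4.94, which overlapped vehicle. The change with the high dose was 2.41 (SE 0.35, adjusted p = 1.59e-06, 5.32-fold). It exceeded that with the low dose by 1.88 (adjusted p = 0.0219), the only call among 42 member tests of dose in IWAT (0.00114% of all), which was lost without replicate 1, 3, 4 or 5 (1.35 at the lowest, adjusted p up to 1).

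In WT-HFD, vehicle levels of Elovl3 in IWAT at 5 d were 4.42, 4.2, 5.08, 4.37 and 5.23, and high-dose levels 6.47, 6.49, 6.82, 6.74 and 8.22, again without overlap (2.29, adjusted p = 3.73e-06, 4.88-fold). WT FGF21 gave 6.51, 5.4, 5.13, 6.24 and 7.21 (1.44, adjusted p = 0.00481) and the low dose 6.23, 4.9, 7.65, 6.86 and 5.42 (1.55, adjusted p = 0.015). Each of these last groups had an array within the vehicle range, which for WT FGF21, at 5.13, was the array that stood apart. Without the arrays that stood apart the WT FGF21 change was 1.68 (adjusted p = 0.000998). The call of WT FGF21 was lost without replicate 1 (adjusted p = 0.0625), and that of the low dose without replicate 1, 3 or 4 (adjusted p up to 0.443). The changes in db/db-chow at 5 d, 0.62 to 0.87, were not called, and none was called at 2 d in any model.

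Brown adipocyte markers were higher in most, but not all, of these high-dose IWAT arrays. Their summed intensities in replicates 1 to 5 of the WT-chow high-dose group at 5 d were 20350, 5918, 31240, 22300 and 12890, against 7122, 5749, 9357, 10520 and 5346 in vehicle, and the 3 highest sums and the 3 highest Elovl3 levels were in the same arrays. Ucp1, the uncoupling protein of thermogenic adipocytes, was at log2 levels of 12.96, 10.64, 13.46, 13.16 and 12.37 against 9.09, 9.21, 8.34, 10.64 and 7.40. In WT-HFD the high-dose sums were 13870, 2896, 17500, 10930 and 25860 and the vehicle sums 3912, 6243, 4245, 5442 and 6769. The array at 2896 lay below every vehicle sum, while its Elovl3 level, 6.49, lay above every vehicle level. Of the 8 markers, Ucp1 and Dio2, which activates thyroid hormone, were called higher in the WT-chow group and Ucp1, Dio2 and Cox7a1 in the WT-HFD group. The part of brown adipocyte number in the Elovl3 result was not tested.

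In RPWAT, Elovl3 was called at 5 d in WT-chow with both doses of PEG30-FGF21 Q108, on 3 vehicle arrays of 5.28, 4.63 and 5.90. The low dose gave 8.14, 7.87, 6.65, 5.38 and 7.26 (1.79, SE 0.55, adjusted p = 0.0483) and the high dose 4.82, 8.00, 7.92, 7.48 and 7.09 (1.79, adjusted p = 0.0425). One array of each dose lay among the vehicle arrays. The high-dose call held in 1 of 8 fits that left out 1 of these arrays, where the change ran from 1.47 to 2.35, and the low-dose call in 1 of 5 fits without a replicate (adjusted p up to 0.209). Among the treated arrays the brown adipocyte sum was lowest in the same 2, at 1066 and 2906 against 8115 to 13360 in the others, while the vehicle arrays, with the low Elovl3 levels, were at 10130, 7092 and 9483. Kidney and adrenal markers summed to 3612, 3017 and 8550 in vehicle and to 67.72 to 1119 with the pegylated protein. The part of these in the result was not tested.

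In EWAT, 0 of 18 Elovl3 tests were called, with a smallest adjusted p of 0.269. At 5 d in WT-chow, vehicle levels were 5.26, 4.62, 5.04, 5.29 and 5.89 and high-dose levels 5.16, 6.12, 4.33, 4.34 and 4.14. The groups overlapped. The response to the high dose in BAT minus that in each white depot was tested in one fit, in which 12 of 126 member tests were called, where 4.25% of all probe set tests were against IWAT, 3.7% against EWAT and 3.01% against RPWAT. Elovl3 held 7 of them, each with the larger response in BAT. Against EWAT the difference was 3.23 in WT-chow (adjusted p = 3.29e-07) and 3.84 in WT-HFD (adjusted p = 1.28e-08) at 5 d, 1.98 in WT-HFD at 2 d (adjusted p = 0.0224) and 2.09 in db/db-chow at 5 d (adjusted p = 0.00284). Against RPWAT it was 2.58 in WT-HFD at 5 d (adjusted p = 7.65e-05). Against IWAT it was 1.44 in db/db-chow at 2 d (adjusted p = 0.0431) and 1.99 at 5 d (adjusted p = 0.00815). The first of these was lost in all 5 fits without a replicate and without the arrays that stood apart (1.53, adjusted p = 0.0958), the second without replicate 4 or 5 (adjusted p up to 0.0811), and the 2 d difference from EWAT without replicate 3, 4 or 5 (adjusted p up to 0.161).

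Elovl6 rose in BAT most of all in db/db-chow, the model in which it stood lowest among the probe sets of a vehicle array. At 5 d the db/db-chow vehicle arrays were at 10.24, 10.35, 11.67, 11.32 and 10.3, and those with the high dose of PEG30-FGF21 Q108 at 12.37, 12.44, 12.57, 12.31 and 12.46. The groups did not overlap, and the spread of the treated arrays was far narrower than that of vehicle. The changes were 1.43 (SE 0.12, 2.69-fold) with WT FGF21, 1.68 (3.2-fold) with the low dose and 1.65 (adjusted p = 7.75e-21, 3.15-fold) with the high dose. At 2 d they were 0.95 (adjusted p = 9.42e-09), 1.22 (adjusted p = 5.31e-13) and 1.24 (adjusted p = 8.16e-14), with vehicle at 10.68, 10.52, 10.76, 11.13 and 10.78 and the high dose at 12.11, 12.06, 11.77, 12.05 and 12.06.

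In the C57BL/6 mice the changes of Elovl6 in BAT were small and were called at 5 d only. In WT-chow, vehicle levels were 12.13, 12.28, 12.41, 12.16 and 12.18 and high-dose levels 12.67, 12.64, 12.61, 12.62 and 12.53 (0.38, adjusted p = 0.021), with 0.35 (adjusted p = 0.0431) for the low dose. The groups did not overlap at the high dose, but the 2 calls held in 2 and 1 of 5 fits without a replicate. In WT-HFD, WT FGF21 gave 0.54 (adjusted p = 0.00175), the low dose 0.58 (adjusted p = 0.000263) and the high dose 0.61 (adjusted p = 6.78e-05). The difference between models was itself called: the response of db/db-chow to the high dose exceeded that of WT-chow by 0.96 (SE 0.17, adjusted p = 0.000341) at 2 d and by 1.27 (adjusted p = 4.03e-08) at 5 d. Between the doses, Elovl6 in BAT differed by -0.02 to 0.11, with 95% intervals from -0.27 to 0.35.

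The other 2 Elovl6 probe sets moved the same way in BAT. One, with the next highest level, was called in the 11 contrasts in which the main probe set was, and changed by 2.20 at the high dose at 5 d in db/db-chow. The other changed by 0.63 to 1.63 in db/db-chow.

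**Figure D3:**
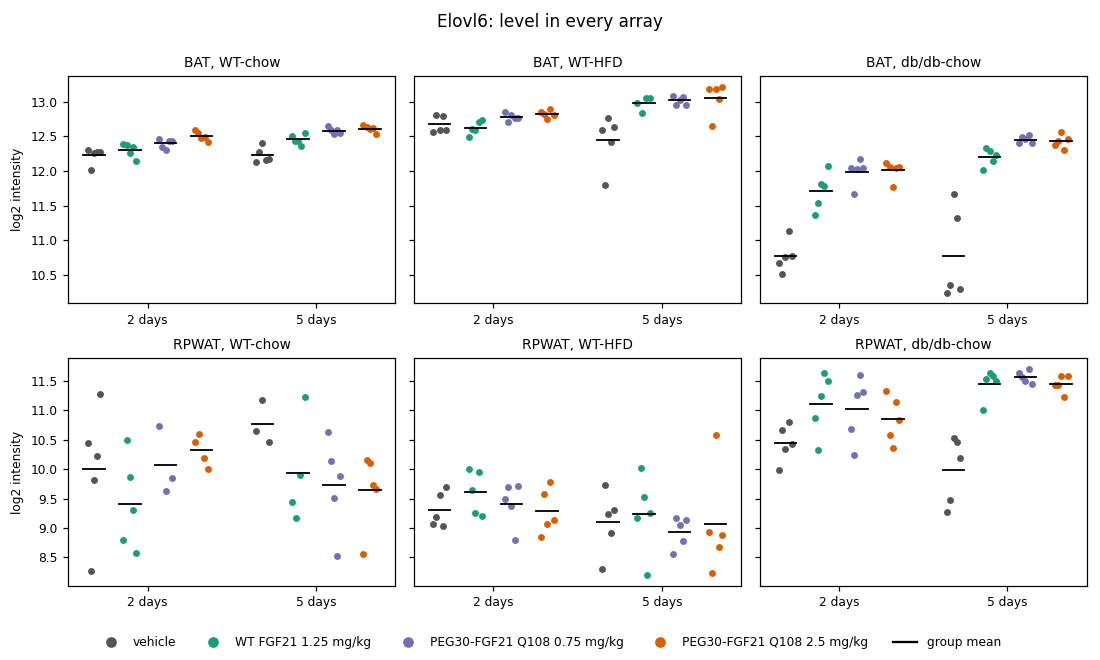
Log2 intensity of Elovl6 in every array (points) of BAT (upper row) and RPWAT (lower row) by model, day and treatment; bars are group means. In BAT of db/db-chow at 5 d the high-dose arrays sit between 12.31 and 12.57 and the vehicle arrays between 10.24 and 11.67.

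In RPWAT, Elovl6 was called at 5 d in db/db-chow with each treatment. Vehicle levels were 9.28, 9.47, 10.53, 10.46 and 10.19, and high-dose levels 11.43, 11.43, 11.59, 11.23 and 11.58, without overlap. The change was 1.47 (SE 0.35, adjusted p = 0.00692) with the high dose, and it stayed called in 9 of 10 fits that left out 1 array. It was 1.47 (adjusted p = 0.00305) with WT FGF21 and 1.59 (adjusted p = 0.00199) with the low dose. In WT-chow at 5 d the levels were 10.65, 11.18 and 10.46 with vehicle and 8.56, 10.15, 10.1, 9.74 and 9.67 with the high dose, a difference of -1.12 that was not called. The response of db/db-chow minus that of WT-chow, 2.59 (SE 0.53, adjusted p = 0.004), was the 1 call among 28 member tests between models in RPWAT (0.313% of all), and was lost without replicate 1 or 3 (adjusted p up to 0.0853). Of the BAT minus RPWAT responses, Elovl6 was called in WT-chow at 5 d (1.5, adjusted p = 0.0324), a call kept in 1 of 5 fits without a replicate.

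Brown adipocyte markers in these db/db-chow RPWAT arrays summed to 1666 to 6262 with vehicle and 10730 to 11960 with the high dose at 5 d. The adipocyte markers Lipe, Pparg and Cidec, a lipase, a nuclear receptor and a lipid droplet protein, were called higher with the high dose as well. Kidney and adrenal markers summed to 1391 to 16180 with vehicle and to 940.3 to 13840 with the high dose in these arrays. In RPWAT of WT-chow at 5 d they summed to 3017 to 8550 with vehicle and to 76.47 to 309.5 with the high dose. The part of all these markers in the Elovl6 results, and in the difference between models, was not tested.

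In IWAT, Elovl6 was called once, at 5 d in db/db-chow with the low dose, where vehicle levels were 9.12, 9.52, 10.6, 10.36 and 9.93 and treated levels 11.35, 11.53, 11.56, 12.01 and 11.02 (1.59, SE 0.35, adjusted p = 0.0284). The groups did not overlap, but the call held in 1 of 5 fits without a replicate. Brown adipocyte markers summed to 2960 to 5291 with vehicle and to 4850 to 8582 with the low dose, with Ucp1 at log2 levels of 8.19 to 9.82 and of 10.16 to 11.46, and their part in the result was not tested. The high dose gave 1.31, which was called without the 2 arrays that stood apart (adjusted p = 0.0494) and not with them (adjusted p = 0.127). In EWAT, Elovl6 had 0 calls against vehicle and changes from -0.92 to 0.70, with a smallest adjusted p of 0.124.

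Elovl4 gave the largest change of the family in white fat, in IWAT of db/db-chow at 2 d. Vehicle levels were 5.98, 5.47, 6.42, 6.09 and 6.82. They were 9.28, 9.48, 9.34, 9.45 and 9.07 with WT FGF21, 9.18, 9.08, 8.74, 8.53 and 9.32 with the low dose and 8.74, 9.02, 10.11, 8.79 and 8.54 with the high dose of the pegylated protein. Every treated array lay more than a log2 unit above every vehicle array. The changes were 3.17 (SE 0.29, adjusted p = 7.08e-14, 8.99-fold), 2.81 (adjusted p = 1.06e-11, 7.04-fold) and 2.88 (adjusted p = 2.35e-12, 7.39-fold). The vehicle group holds 1 of the arrays that stood apart, the one at 5.47. Without those arrays the changes were 3.0 (adjusted p = 5.61e-18), 2.64 (adjusted p = 4.58e-15) and 2.72 (adjusted p = 1.03e-15), while the share of all probe sets called in the same 3 contrasts went from 17.7%, 12.5% and 17.3% to 0.831%, 0.838% and 1.44%. Skeletal muscle markers summed to 2738 to 75930 in this vehicle group and to 35410 to 74340 with the high dose.

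This response was smaller at 5 d and in WT-chow. At 5 d in db/db-chow, vehicle levels of Elovl4 in IWAT were 5.96, 5.85, 5.74, 6.78 and 5.9 and high-dose levels 6.02, 6.54, 6.92, 6.05 and 7.05, which overlapped (0.47, not called). WT FGF21 gave 1.16 there (adjusted p = 0.0579, or 0.000795 without the arrays that stood apart). In WT-chow at 2 d the levels were 4.82, 4.96, 4.66, 5.4 and 4.44 with vehicle and 5.26, 5.1, 5.69, 4.81 and 5.05 with the high dose, also overlapping. The 5 d minus the 2 d response in db/db-chow was -2.41 (SE 0.42, adjusted p = 0.000614), the 1 call among 21 such member tests in IWAT (0.0817% of all), with an adjusted p of 0.0569 without replicate 2, and -2.24 (adjusted p = 8.49e-06) without the arrays that stood apart. The response of db/db-chow exceeded that of WT-chow at 2 d by 2.56 (adjusted p = 7.17e-05), the 1 call of 28 (0.196% of all), or by 2.39 without the arrays that stood apart (adjusted p = 5.06e-07). BAT minus IWAT was -2.47 in db/db-chow at 2 d (adjusted p = 6e-07), so the response was the larger in IWAT, and -2.3 (adjusted p = 4.35e-06) without the arrays that stood apart.

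**Figure D4:**
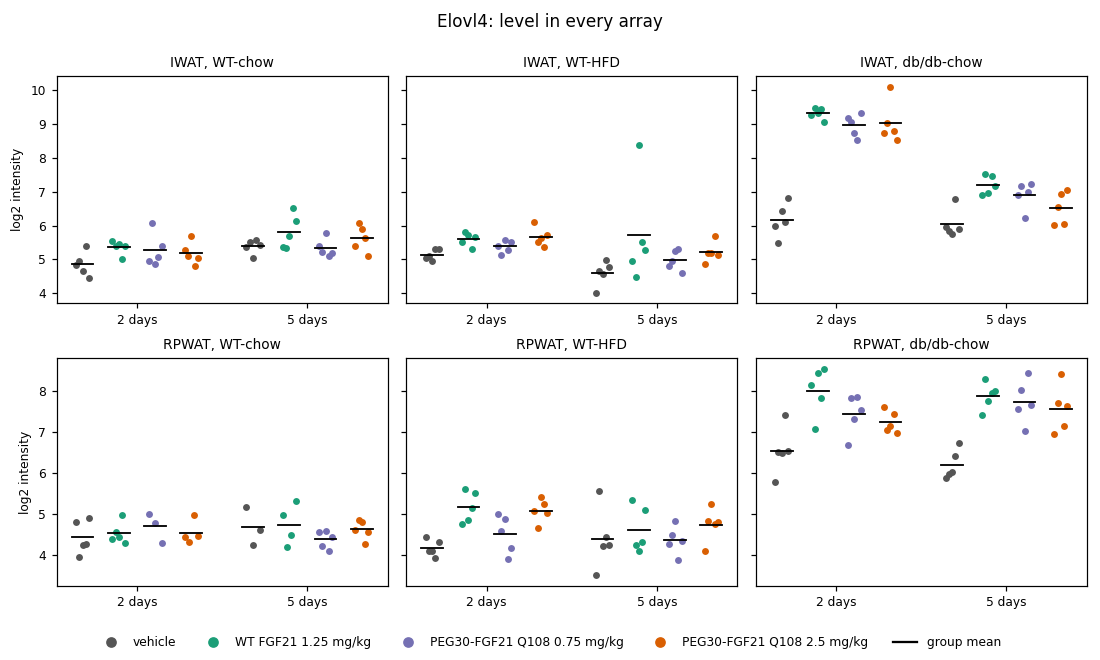
Log2 intensity of Elovl4 in every array (points) of IWAT (upper row) and RPWAT (lower row) by model, day and treatment; bars are group means. In IWAT of db/db-chow at 2 d the WT FGF21 arrays sit between 9.07 and 9.48 and the vehicle arrays between 5.47 and 6.82.

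Elovl4 rose in the other white depots of db/db-chow as well. In EWAT it rose with WT FGF21 at 2 d by 1.98 (SE 0.30, adjusted p = 1.57e-05, 3.96-fold), and at 5 d by 1.25 (adjusted p = 0.019) with WT FGF21, 1.17 (adjusted p = 0.0413) with the low dose and 1.44 (adjusted p = 0.00255) with the high dose. The 5 d vehicle levels were 5.21, 5.7, 6.65, 6.02 and 5.41 and the high-dose levels 6.87, 7.68, 8.09, 6.33 and 7.23, of which 1 lay within the vehicle range. The 5 d calls held in 1, 1 and 4 of 5 fits without a replicate.

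In RPWAT of db/db-chow, Elovl4 changed at 5 d by 1.68 (adjusted p = 8.24e-06), 1.54 (adjusted p = 6.38e-05) and 1.37 (adjusted p = 6e-04) with WT FGF21, the low and the high dose. Vehicle levels were 5.87, 5.97, 6.03, 6.4 and 6.73, and high-dose levels 6.95, 7.7, 8.41, 7.15 and 7.64, without overlap, where the high-dose call held in 10 of 10 fits that left out 1 array. Brown adipocyte markers moved in the same arrays, from sums of 1666 to 6262 with vehicle to 10730 to 11960 with the high dose and from Ucp1 levels of 8.61 to 11.05 to levels of 12.17 to 12.25, and their part in the Elovl4 result was not tested. Kidney and adrenal markers summed to 1391 to 16180 with vehicle and to 940.3 to 13840 with the high dose, and their part was not tested either. At 2 d WT FGF21 was called in db/db-chow (1.46, adjusted p = 0.00531) and in WT-HFD (1.0, adjusted p = 0.0306), which held in 3 and 1 of 5 fits without a replicate. At 5 d in db/db-chow, BAT minus EWAT was -1.59 (adjusted p = 0.00391) and BAT minus RPWAT -1.51 (adjusted p = 0.0113), both lost without replicate 2 (-1.35 and -1.32, adjusted p = 0.0544 and 0.0906), the latter also without replicate 3.

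In BAT, Elovl4 was called at 5 d in the C57BL/6 mice and not in db/db-chow. In WT-chow the low dose gave 0.90 (adjusted p = 0.00588) and the high dose 0.83 (adjusted p = 0.0106), with vehicle levels of 4.15, 4.7, 4.29, 4.92 and 5.15 and high-dose levels of 6.47, 4.88, 5.11, 5.18 and 5.72. Here the groups overlapped, and without replicate 1, the array at 6.47 among them, the high-dose change was 0.46 (adjusted p = 0.271). In WT-HFD the changes were 1.25 (adjusted p = 7.94e-05) with the low and 0.87 (adjusted p = 0.00678) with the high dose, the latter lost without replicate 2 (adjusted p = 0.162).

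Elovl5 was among the most intense probe sets in every depot and moved little. In BAT of WT-HFD at 5 d, vehicle levels were 11.86, 11.85, 11.77, 11.82 and 12.19 and high-dose levels 12.28, 12.08, 12.31, 12.03 and 12.57 (0.36, adjusted p = 0.00221). The groups overlapped through 1 vehicle array. WT FGF21 (0.28, adjusted p = 0.0452) and the low dose (0.30, adjusted p = 0.0201) were called there too, in 1 and 2 of 5 fits without a replicate. In WT-chow the high dose went the other way at 2 d, from 11.84, 11.61, 11.69, 11.69 and 11.7 to 11.55, 11.28, 11.59, 11.54 and 11.09 (-0.30, adjusted p = 0.0421), a call that held in 4 of 10 fits that left out 1 array. The dose difference there was -0.40 (adjusted p = 0.0153), lost without replicate 2 or 5 (adjusted p up to 0.462), and the 5 d minus 2 d responses were 0.50 (adjusted p = 0.0155) in WT-chow and 0.59 (adjusted p = 0.0109) in WT-HFD, which held in 3 and 2 of 5 fits without a replicate.

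In RPWAT of db/db-chow at 5 d, Elovl5 was lower with WT FGF21, at 11.15, 11.13, 11.11, 11.42 and 11.19 against 11.83, 11.89, 11.94, 11.93 and 11.18 in vehicle (-0.55, adjusted p = 0.00175). One vehicle array, the one at 11.18, lay with the treated arrays. Kidney and adrenal markers summed to 15430, 16180, 14370, 14050 and 1391 in the vehicle arrays in the same order, and to 351.3 to 4774 with WT FGF21, so that the vehicle array with the low Elovl5 level also had the low sum. The part of these tissues in the Elovl5 result was not tested. In IWAT all 18 changes were between -0.35 and -0.01. The single call there, with WT FGF21 at 5 d in WT-HFD, did not hold without the arrays that stood apart, where the change was -0.01 (adjusted p = 0.978). Without the arrays that stood apart, 3 changes in WT-chow at 5 d were called instead, at -0.23 (adjusted p = 0.0227), -0.25 (adjusted p = 0.00616) and -0.19 (adjusted p = 0.0498).

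Elovl1 fell in BAT of db/db-chow at 5 d, by 0.59 (adjusted p = 0.000453) with the low and by 0.50 (adjusted p = 0.00399) with the high dose. The levels were 5.85, 6.06, 5.99, 6.13 and 6.26 with vehicle and 5.6, 5.56, 5.58, 5.49 and 5.55 with the high dose, without overlap. Endothelial markers moved alongside: their sums were 5010 to 5457 with vehicle and 4459 to 4589 with the high dose, where 5 of 6 markers were called lower and 1 higher, and the part of this in the Elovl1 result was not tested. In EWAT of WT-HFD at 2 d, Elovl1 rose with WT FGF21 by 0.59 on 4 vehicle arrays (adjusted p = 0.0223), a call kept in 2 of 5 fits without a replicate. BAT minus RPWAT in db/db-chow at 5 d was -0.75 (adjusted p = 0.0166), kept in 2 of 5.

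Elovl2 was not called against vehicle, and the 1 such call of Elovl7 rested on a single array. The 1 dose call of Elovl2, in BAT of WT-HFD at 2 d (0.48, adjusted p = 0.0447), held in 1 of 5 fits without a replicate. In EWAT its changes ran from -1.19 to 1.51 with none called. Elovl7 was called in IWAT of WT-HFD at 5 d with WT FGF21 (1.2, adjusted p = 0.0498). Its levels were 5.12, 5.55, 5.62, 5.1 and 5.34 with vehicle and 5.55, 5.55, 11.46, 5.17 and 4.99 with treatment, so that 1 array, the one rich in epithelial markers, was far above all others, and without the arrays that stood apart the change was -0.03 (adjusted p = 0.97). The Elovl4 call of the same contrast went from 1.12 to 0.46 (adjusted p = 0.294). In all, 11 member calls against vehicle in IWAT became 13 without the arrays that stood apart, of which 8 were shared, where 2.18%, 0.873% and 2.58% of all probe set tests were then called with WT FGF21, the low and the high dose.

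In EWAT and RPWAT, 0 of 42 member tests of dose were called (0.0965% and 0.0549% of all) and 0 of 21 tests of day (0.0908% and 0.474% of all), and in EWAT 0 of 28 tests between models (0.27% of all). Intervals of the dose difference were wide for some members: for Elovl3 they reached from -1.07 to 0.88 in EWAT and from -0.98 to 1.68 in RPWAT.

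Over all treatments, days and models of a depot, the mean difference between FGF21 and vehicle was tested at an unadjusted p under 0.001, as an N-way test. In BAT 3 of 7 members passed (19.4% of all probe sets did), with 89 FGF21 and 30 vehicle arrays: Elovl3 at 1.92 (SE 0.11, limma adjusted p = 2.64e-30, 3.78-fold), Elovl6 at 0.64 and Elovl4 at 0.44. In IWAT the same genes passed (7.65% of all), at 0.74, 0.47 and 0.92, or 0.74, 0.46 and 0.85 without the arrays that stood apart, and in EWAT Elovl4 alone (6.76% of all), at 0.57. In RPWAT Elovl3 (0.74), Elovl4 (0.59) and Elovl5 (-0.16) passed (8.06% of all). Elovl4 was thus the one member past this threshold in every depot, and it stayed so in all 5 fits of each depot without a replicate. The Elovl5 call in RPWAT was kept in 2 of 5 such fits, lost without replicate 1, 4 or 5, the Elovl6 call in IWAT in 3 of 5, lost without replicate 1 or 2, and the Elovl3 call in RPWAT in 4 of 5, lost without replicate 2. Elovl3 was at -0.17 in EWAT (limma adjusted p = 0.33). The other probe sets did not all follow the main ones. For Elovl6 in IWAT, the probe set with the next highest level passed too, at 0.49, and the dimmest, at -0.05, did not. The other Elovl5 probe set did not pass in RPWAT, at 0.01.

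Without treatment, the members differed in where they stood among the probe sets of an array, given here as a percentile because the 12 sets differ in scale. These are descriptions, and depot, model and normalization cannot be told apart in them. Elovl3 stood highest in BAT of WT-chow, at the 87.6 percentile ± 2.95 (SD, n = 10), followed by BAT of WT-HFD at 79.8 ± 4.71. Next came EWAT, RPWAT and IWAT of db/db-chow at 61.3, 59.4 and 59.3, RPWAT of WT-chow at 58.1, BAT of db/db-chow at 58.0 ± 4.08 and EWAT of WT-chow at 56.3, neighbours whose means lay within their SD. RPWAT and EWAT of WT-HFD followed at 52.5 and 46.5. The lowest were IWAT of WT-chow at 42.4 and of WT-HFD at 35.9.

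Elovl6 was at the 99.6 percentile in BAT of WT-chow, 99.1 in WT-HFD and 97.2 in db/db-chow, near the top of the array, and in each white depot it stood lower in WT-HFD (81.5 in IWAT, 81.0 in EWAT, 86.2 in RPWAT) than in the chow-fed groups (87.6 to 95.2). Elovl5 was at 98.4 to 99.2 everywhere. Elovl4 went opposite ways in brown and white fat: in db/db-chow it was at 41.0 in BAT, against 61.8 in WT-chow, but at 53.5, 63.5 and 67.1 in IWAT, EWAT and RPWAT, against 38.6, 37.2 and 46.2. Elovl1 held between 63.4 and 71.4. Elovl7 was at 16.8 and 23.3 in BAT of WT-chow and WT-HFD, at 46.3 in BAT of db/db-chow and at 39.4 to 53.7 in white fat.

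Elovl2 stood apart in EWAT, at the 49.7, 60.1 and 54.3 percentile against 11.4 to 33.3 in the other depots, with an SD of up to 17.3 between EWAT arrays. The highest EWAT vehicle level of Elovl2, 7.72, was in an array whose epididymis and testis markers summed to 7573, but arrays at 7.36 and 7.32 had sums of 75.4 and 76.71. In RPWAT of db/db-chow the highest levels, 7.38 and 5.79, came with kidney and adrenal sums of 9885 and 15430, and arrays with sums of 14060 and 16180 were at 2.87 and 2.63.

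**Figure D5:**
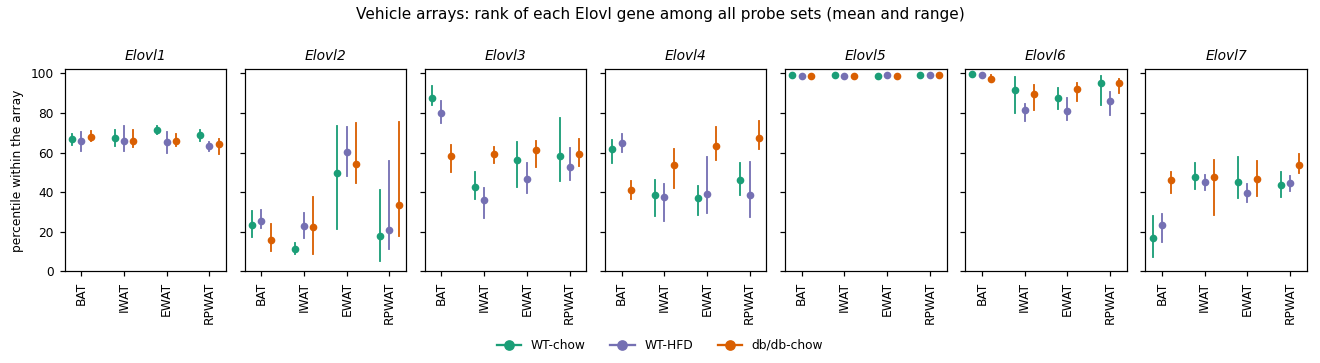
Percentile of each Elovl gene among all probe sets of an array (vertical axis) in the vehicle arrays of each depot and model; points are means and lines run from the lowest to the highest array. Elovl3 lies at the 87.6 percentile in BAT of WT-chow and at 42.4 in IWAT of WT-chow.

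The enzymes that act with the Elovl proteins were described from lists, by the same N-way test, which 8477 of all probe sets passed in BAT (3732 higher, 4745 lower; 19.4%), 7.65% in IWAT, 6.76% in EWAT and 8.06% in RPWAT. Of 7 other enzymes of the elongation cycle, 2 passed the N-way test as higher in BAT, 1 in each white depot, and 1 as lower in EWAT. Hsd17b12, the 3-ketoacyl-CoA reductase of the cycle, was higher in all 4 depots (0.60 in BAT, 0.65 in IWAT, 0.39 in EWAT and 0.44 in RPWAT) and was called in 6 of 6 high-dose contrasts in BAT, by 0.36 to 1.23. Hacd2, one of the dehydratases, rose by 0.80 in BAT of WT-HFD at 5 d (adjusted p = 8.21e-12). The median N-way change of this list in BAT was -0.00344, beside 0.00327 for all probe sets.

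The list of malonyl-CoA and palmitate synthesis held 8 genes, among them Mlycd, the decarboxylase that breaks malonyl-CoA down. Of these, 6 were higher and 0 lower in BAT, and 0 passed in IWAT. In EWAT 4 were lower, and in RPWAT 1 was lower. The median changes in BAT, IWAT, EWAT and RPWAT were 0.19, -0.10, -0.20 and -0.16. In BAT of db/db-chow at 5 d the high dose raised Me1, the malic enzyme, by 1.52 (adjusted p = 1.08e-14), the acetyl-CoA synthetase Acss2 by 1.63 (adjusted p = 9.25e-14) and the citrate carrier Slc25a1 by 1.61 (adjusted p = 3.56e-10). Neither Acss2 (0.11) nor Slc25a1 (-0.003) passed the N-way test in BAT. Their high-dose changes in the 6 BAT contrasts ran from -0.59 to 1.63 and from -1.2 to 1.61, and over the list 18 of 48 high-dose tests in BAT were called higher and 7 lower. In RPWAT of WT-chow at 5 d, Acly, which makes acetyl-CoA from citrate, changed by -1.72 (adjusted p = 0.000184). Of 4 lipogenic regulators, 2 were higher in BAT, EWAT and RPWAT and 0 in IWAT. Thrsp among them, which encodes the lipogenic protein Spot 14, was lower in IWAT (-0.44), EWAT (-0.30) and RPWAT (-0.17). Mlxipl, which encodes ChREBP, rose by 0.76 in BAT of db/db-chow at 2 d (adjusted p = 2.5e-11), and Nr1h3, the oxysterol receptor LXR alpha, by 0.91 in EWAT of WT-HFD at 5 d (adjusted p = 5.32e-11).

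Of 7 fatty acyl desaturases, which place double bonds in the same chains, 1 was higher and 3 lower in BAT and 1 was lower in IWAT, with none past the test in EWAT or RPWAT. Scd2, a stearoyl-CoA desaturase, rose by 1.23 in BAT of db/db-chow at 5 d (adjusted p = 4.13e-05), and Fads1, Fads2 and Fads3 had N-way changes of -0.25, -0.14 and -0.37 in BAT. Of 6 ceramide synthases, which use very long chains, 0 were higher and 2 lower in BAT. Of 6 measured genes of 8 for the peroxisomal oxidation of very long chains, 2 were higher and 1 lower in BAT.

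The genes whose pattern was most like that of a member were found from log2 levels minus the vehicle mean of the same depot, model and day, over 468 arrays that share vehicle groups and treatments. For Elovl6 they were Tkt (Pearson r 0.84), a transketolase of the pentose phosphate pathway, Tmem79 (0.808), Acaca (0.803), the acetyl-CoA carboxylase that makes malonyl-CoA, Pdhb (0.803), a subunit of pyruvate dehydrogenase, and Acly (0.80). In each depot taken alone r lay between 0.626 and 0.917. For Elovl3 they were Mcee (0.717), a methylmalonyl-CoA epimerase, Acot8 (0.691), a peroxisomal acyl-CoA thioesterase, Lgr6 (0.687), 4931406C07Rik (0.679) and Tectb (0.672), with r of 0.627 to 0.852 in BAT and of -0.154 to 0.289 in EWAT. Between members, 4 values of r within a depot were over 0.5: 0.698 for Elovl4 with Elovl6 in RPWAT, 0.54 for Elovl3 with Elovl4 in BAT, 0.513 for Elovl3 with Elovl6 in BAT and 0.55 for Elovl2 with Elovl3 in EWAT.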

How the data were processed

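RNA of whole fat depots was amplified (NuGEN Ovation) and hybridised to a custom Affymetrix mouse array, 1 array for each depot of a mouse. The deposited values are linear intensities, which the authors summarised by RMA in Rosetta Resolver (its version is not given in the sources used here); whether each depot and model was normalized on its own is not known, but their scales differ, so contrasts stay within such a set. Probe sets were named from the platform annotation, in which 30342 have 1 gene symbol and 13339 none. The 7 members, the gene lists and the markers were chosen with earlier results of these data known. Members are named by their main probe set, and from each list up to 4 genes with the smallest adjusted p for the high dose.

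The log2 of each value was fitted with limma 3.58.1 in R 4.3.3, with no further scaling and no filter on dim probe sets: 1 mean for each of the 24 groups of a depot, moderated with an intensity trend, and p-values adjusted by Benjamini-Hochberg over 43681 probe sets in each contrast. BAT minus white depot responses came from 1 fit of all 96 groups. The N-way test averaged the 6 differences of FGF21 minus vehicle. The fit was tested on simulated data. Array numbers of 3 to 5 a group limit the precision. The p-values rest on a spread between mice that is pooled over all groups of a fit, not on that of the compared groups alone. Samples were not treated as paired: deviations of same-numbered arrays of different treatments had a mean r of -0.012 (175 of 684 pairs over 0.1). Between depots of a group same-numbered arrays had a mean r of 0.0613 (219 of 685 pairs over 0.1), against -0.0149 (316 of 2738) for different numbers, but the labels do not tie the depots of a mouse, so the fit of all groups ignores any such pairing. Alternatives were quantile normalization, fits within 1 model or of 2 groups, array weights, a filter on low levels, the mean of a member's probe sets, the methods' 1-way ANOVA, a replicate block, and leaving out replicates or arrays. Sequences are RefSeq's (GRCm38.p6).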

Additional observations from a re-analysis of the deposited data

Results flagged for a closer look

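In 10 of 59 groups whose arrays were listed, Dixon's test flagged 1 array. Its gap to the nearest array was large for the range of its group, which can still be a small distance in log2. Chance alone flags about 1 group in 20. That rate is a rough guide, because results turned on the listed groups and some hold the same arrays for different genes. Among Elovl3 levels the flagged arrays were a vehicle array at 9.27 in BAT of WT-chow and one at 8.61 in BAT of WT-HFD, a high-dose array at 8.22 in IWAT of WT-HFD and one at 4.82 in RPWAT of WT-chow, all at 5 d. For Elovl6 it was a high-dose array at 11.77 in BAT of db/db-chow at 2 d, and for Elovl4 a vehicle array at 6.78 in IWAT of db/db-chow at 5 d. For Elovl5 they were a vehicle array at 12.19 in BAT of WT-HFD, and in RPWAT of db/db-chow a vehicle array at 11.18 and a WT FGF21 array at 11.42, and for Elovl7 the WT FGF21 array at 11.46 in IWAT of WT-HFD, all at 5 d.

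Responses to the high dose of PEG30-FGF21 Q108 that differed by limma's test of the difference itself were of 3 kinds. Between 5 d and 2 d, in BAT, they were 1.54 and 1.64 for Elovl3 in WT-chow and db/db-chow and 0.50 and 0.59 for Elovl5 in WT-chow and WT-HFD, and in IWAT -2.41 for Elovl4 in db/db-chow. Between db/db-chow and WT-chow they were 0.96 and 1.27 for Elovl6 in BAT at 2 d and 5 d, 2.56 for Elovl4 in IWAT at 2 d and 2.59 for Elovl6 in RPWAT at 5 d. Between BAT and a white depot, Elovl3 differed by 1.44 and 1.99 from IWAT in db/db-chow at 2 d and 5 d, by 3.23, 1.98, 3.84 and 2.09 from EWAT in WT-chow at 5 d, WT-HFD at 2 d and 5 d and db/db-chow at 5 d, and by 2.58 from RPWAT in WT-HFD at 5 d. Elovl4 differed in db/db-chow by -2.47 from IWAT at 2 d, -1.59 from EWAT and -1.51 from RPWAT at 5 d, Elovl6 by 1.5 from RPWAT in WT-chow and Elovl1 by -0.75 from RPWAT in db/db-chow, both at 5 d.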

How the results depend on the processing

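Of 1399 recomputed values of single calls, 1172 kept direction and call, 226 lost the call and 1 reversed, Elovl7 in IWAT of WT-HFD with WT FGF21 at 5 d (-0.0303 without the arrays that stood apart). Of those lost, 128 of 588 came with a replicate left out. Several alternatives leave the log2 change as it was, so they could lose a call but could not reverse one. These were fits within 1 model, of 2 groups or of BAT with 1 white depot, and the filter on low levels. The added fold threshold, the methods' 1-way ANOVA and the N-way test at an adjusted p were others. The count of reversals therefore says nothing about them. The 37 calls against vehicle in BAT became 24 with the methods' 1-way ANOVA after Benjamini-Hochberg, the 11 in IWAT 3, and the 5 in EWAT 0. At that test's own threshold they were 23 in IWAT, 13 in EWAT and 22 in RPWAT (from 11). The EWAT count was 3 in fits within a model, 1 in fits of 2 groups and 8 with array weights. Without a replicate it was 1 to 6, and the IWAT count 6 to 10. Calls between doses in BAT, 2, became 1 with quantile normalization, with a filter at the median level, with array weights and with the mean of a member's probe sets, 0 within a model, and 0 to 1 without a replicate. In IWAT the 1 call became 0 within a model and 0 to 1 without a replicate. Calls between days were 1 to 4 in BAT without a replicate, and 2 in IWAT within a model or with weights. Calls between models were 2 in IWAT with weights, 2 in RPWAT with the filter or with weights, and 0 to 1 in RPWAT without a replicate. N-way calls in EWAT were 2 with quantile normalization and 2 at an adjusted p under 0.05. The 12 depot differences were 7 to 10 without a replicate. Elovl3 in vehicle BAT minus IWAT of WT-chow, 2.81, was 4.73 after quantile normalization over all arrays. The cause was not tested for any of these.

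With the replicate number as a block, calls against vehicle were 38 in BAT, 10 in IWAT, 5 in EWAT and 8 in RPWAT, the 12 depot differences were 12, and 92 of 98 single values kept their call. Quantile normalization moved the median of a contrast over all probe sets by at most 0.0266. Differences between models cannot be given by fits within a model. Leaving out arrays of db/db-chow one at a time was added after seeing the data. The 3 to 5 arrays a group limit the precision.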
